A study of Homo sapiens with 6 samples.

Results

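Expression of 10 genes that encode transcription factors of the somites and the paraxial mesoderm was followed in human cells driven toward the kidney lineage: MEOX1, MEOX2, TCF15, PAX1, PAX3, PAX7, PAX9, UNCX, FOXC1 and FOXC2. They were chosen by name, and all 10 were found among the 60107 gene IDs of the counts table, of which 9 passed the filter on low counts. The cells were H9, an established human embryonic stem cell line, and RNA was collected at the end of day 9 while the cells were being turned into nephron progenitors, from which the filtering units of the kidney develop. Complete medium with glutamine was used for 3 libraries, and for the other 3 glutamine was withheld from day 0 through day 9. All 6 libraries share the cell line, the protocol and the day, and no time point before day 9 is among them. Nothing in the labels says whether the libraries of a group came from separate cultures, so p-values measure only the spread between these libraries, which may be technical.

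The paraxial mesoderm is the embryonic tissue on either side of the neural tube that segments into somites. Each somite then divides into the sclerotome, which gives cartilage and vertebrae, and the dermomyotome, which gives skeletal muscle and dermis. The intermediate mesoderm, from which the kidney arises, lies directly beside it, and FOXC1 and FOXC2 are known to favour the paraxial over the intermediate fate in the embryo. PAX3 and PAX7 mark the dermomyotome and muscle progenitors, PAX1, PAX9 and UNCX the sclerotome, and MEOX1, MEOX2 and TCF15 the forming somite.

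Library totals ran from 78220507 to 84746566 counts. Replicate 1 with glutamine stood apart from its group: its Pearson correlation of log2 CPM across genes was 0.976 with replicates 2 and 3, but 0.991 to 0.993 with libraries grown without glutamine. Over all genes tested, 62% lay nearer the mean of the libraries without glutamine in that library than the mean of replicates 2 and 3 of its own group. Among the regulators this held for 8 of the 9 tested, all except UNCX, and the fold changes and paralog shares of the regulators are therefore given with and without that library. Values are CPM, counts scaled to a common library total after TMM scaling (trimmed mean of M-values), unless a sentence says otherwise. In bulk RNA, fewer cells of a type and less RNA per cell cannot be told apart.

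Promoters are shown for 4 regulators: PAX3, PAX7 and MEOX2, which were low in the same 4 libraries, and UNCX, which was not. Each run is the 250 bases before the RefSeq gene start, in GRCh38.p14, read 5′ to 3′ on the gene's own strand. PAX3 is at chr2:222298999-222299248 on the minus strand, PAX7 at chr1:18630596-18630845 on the plus strand, MEOX2 at chr7:15686684-15686933 on the minus strand and UNCX at chr7:1232622-1232871 on the plus strand. Capitals mark matches, on either strand, to the motifs searched.
PAX3: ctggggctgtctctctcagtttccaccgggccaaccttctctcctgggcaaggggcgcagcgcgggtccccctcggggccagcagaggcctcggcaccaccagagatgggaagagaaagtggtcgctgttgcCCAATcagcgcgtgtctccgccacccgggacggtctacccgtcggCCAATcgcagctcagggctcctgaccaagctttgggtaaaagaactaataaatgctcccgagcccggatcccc
PAX7: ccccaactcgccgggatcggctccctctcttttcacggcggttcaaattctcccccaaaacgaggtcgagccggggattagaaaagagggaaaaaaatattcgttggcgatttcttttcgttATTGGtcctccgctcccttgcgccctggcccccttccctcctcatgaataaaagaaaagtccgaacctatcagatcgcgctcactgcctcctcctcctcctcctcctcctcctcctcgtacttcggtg
MEOX2: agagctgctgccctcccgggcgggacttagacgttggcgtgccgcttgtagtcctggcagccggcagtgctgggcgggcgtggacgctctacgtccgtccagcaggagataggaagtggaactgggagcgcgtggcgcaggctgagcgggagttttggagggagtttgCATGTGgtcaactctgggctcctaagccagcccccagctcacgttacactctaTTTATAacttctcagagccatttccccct
UNCX: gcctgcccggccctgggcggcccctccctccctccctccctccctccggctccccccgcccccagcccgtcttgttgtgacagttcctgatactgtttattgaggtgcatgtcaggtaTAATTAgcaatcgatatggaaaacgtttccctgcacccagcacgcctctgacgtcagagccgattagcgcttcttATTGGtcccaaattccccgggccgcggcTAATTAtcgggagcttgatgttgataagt
The motifs were the E-box CANNTG, bound by basic helix-loop-helix factors such as TCF15, the homeodomain motif TAATTA, the TCF/LEF motif CTTTGA, the forkhead motif TGTTTAC, the TATAAA element and the CCAAT box. TAATTA matched at 2 places in the UNCX window and in 4.35% of 35116 promoter windows of the same length. The MEOX2 window held 1 E-box, found in 61.8% of all windows, and 1 TATAAA, found in 10.7%. CCAAT, found in 32.0% of all windows, matched 2 times before PAX3, 1 time before PAX7 and 1 time before UNCX. CTTTGA, in 11.2% of all windows, and TGTTTAC, in 2.98%, were in none of the 4. No matches overlapped each other in these windows, TAATTA reads the same on both strands and was counted once per place, and a match is not a measured binding site. PAX9 and TCF15 were low in the same 4 libraries too. FOXC1 and PAX9 also had promoter entries, which are not printed, whereas MEOX1, TCF15, PAX1 and FOXC2 had none.

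The comparison asked whether the somite program differs between cells grown without and with glutamine. The 10 regulators did not share 1 pattern. PAX3, PAX7, MEOX2, TCF15 and PAX9 were high in replicates 2 and 3 with glutamine and low in the other 4 libraries. FOXC1, FOXC2 and UNCX had fitted values in the opposite direction, MEOX1 hardly differed between the groups, and PAX1 was at most at 2 counts. With all 6 libraries, edgeR's quasi-likelihood test called 0 of the 9 regulators at a Benjamini-Hochberg adjusted p under 0.05, where it called 0.00442% of all 22613 genes. At an unadjusted p under 0.05 there were 5 of 9 (MEOX2, TCF15, PAX3, PAX7 and UNCX), against 29.7% of all genes. DESeq2 called the same 5, against 3052 of the 22613 genes that edgeR tested. Its share was 7.13% of the 43005 genes with a p-value in its own fit, which was run with no filter on low counts. Its adjustment, however, gave no adjusted p to some genes with few counts, such as PAX1. These could not be called but are among the 43005. Limma-voom called 0. Without replicate 1 with glutamine, edgeR called 8 of 9, against 41.3% of all 23164 genes. Of these, 6 were lower without glutamine, against 19% of all genes, and 2 were higher, against 22.3%. The groups had no overlap in CPM for 1 of the 9, MEOX2, against 34.2% of all genes. The median log2 fold change of the 9 was -0.98, beside 0.001 over all genes tested, and -1.37 beside 0.01 without replicate 1 with glutamine.

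**Figure D1:**
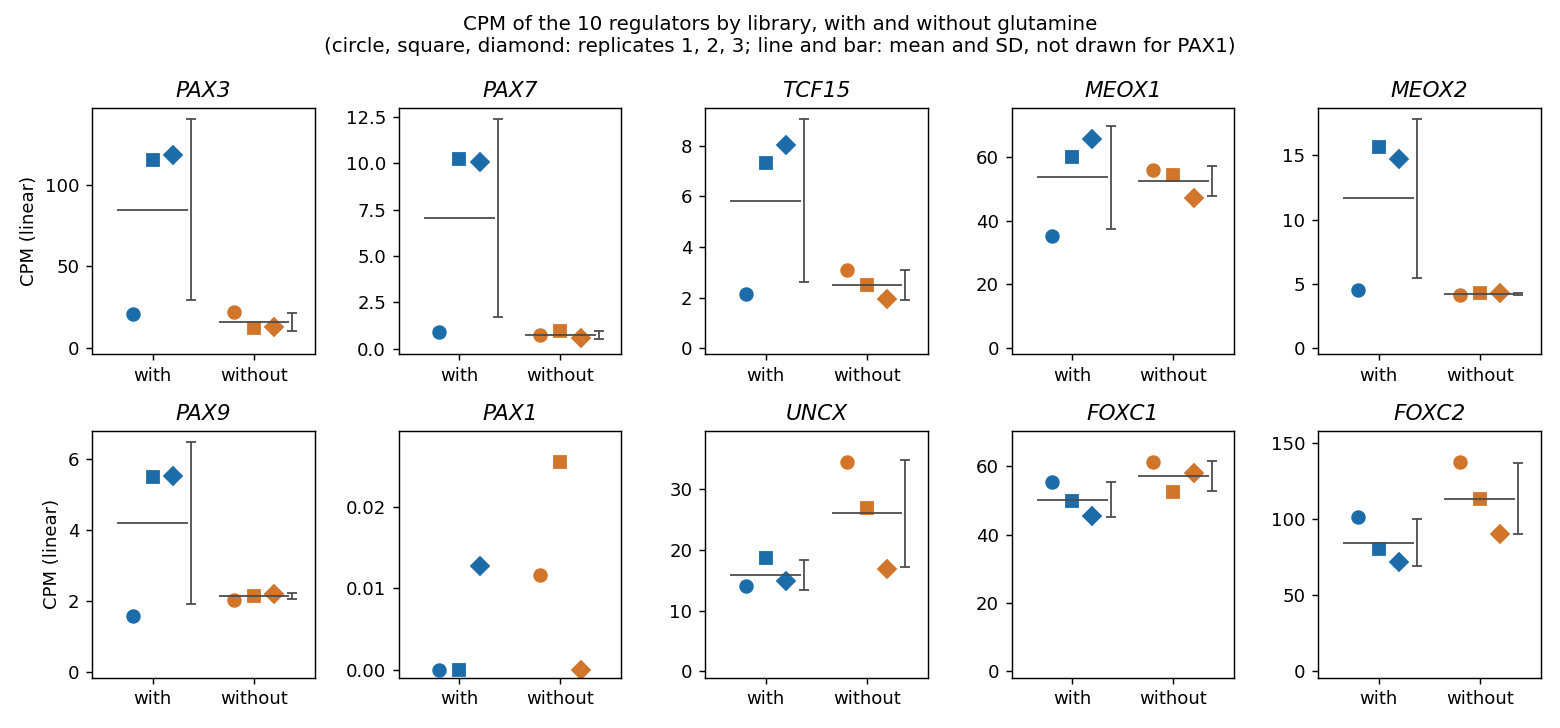
CPM of the 10 regulators on linear axes, with each library as a point (circles, squares and diamonds for replicates 1, 2 and 3), the group mean as a line and the SD as a bar (neither for PAX1). In PAX3, replicates 2 and 3 with glutamine sit at 115 and 118 CPM and the other 4 libraries between 12.4 and 22.4 CPM, and PAX1 has at most 2 counts in any library.

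PAX3 and PAX7 are paralogs that encode paired-box factors of the dermomyotome and of muscle progenitors. PAX3 (ENSG00000135903, chromosome 2, 222199888 to 222298996, minus strand, GENCODE 29 on GRCh38) had 20.8, 115 and 118 CPM in replicates 1 to 3 grown with glutamine, against 22.4, 12.4 and 13.4 CPM without. Replicate 1 with glutamine thus lay inside the range of the libraries without glutamine, and replicates 2 and 3 lay far above every other library. The group means were 84.7 ± 55.3 and 16.1 ± 5.51 CPM (SD, n = 3). Replicates 2 and 3 with glutamine averaged 117 CPM, 7.26 times the mean without glutamine. The log2 fold change was -2.40 (SE 0.62, adjusted p = 0.0786 by edgeR), and DESeq2 gave an adjusted p of 0.0160. Without replicate 1 with glutamine PAX3 was called lower, at -2.85 (SE 0.20, adjusted p = 5.24e-06 by edgeR).

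PAX7 (ENSG00000009709, chromosome 1, 18631006 to 18748866, plus strand) had the largest fitted difference of the 9 regulators. It was at 0.887, 10.2 and 10.0 CPM with glutamine, against 0.732, 0.970 and 0.547 CPM without. The split of the libraries was that of PAX3, with replicate 1 with glutamine again within the range of the other group. In counts, replicates 2 and 3 with glutamine held 798 and 789, replicate 1 held 72, and the libraries without glutamine held 43 to 76. The mean of replicates 2 and 3 was 13.5 times the mean without glutamine. The log2 fold change of PAX7 was -3.23 (SE 0.85, adjusted p = 0.0806 by edgeR; 0.00886 by DESeq2) and, without replicate 1 with glutamine, -3.75 (SE 0.17, adjusted p = 3.19e-07 by edgeR).

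PAX3 remained the more abundant paralog everywhere. Per length, its share of the summed PAX3 and PAX7 counts was 94.9%, 90.0% and 90.3% in replicates 1, 2 and 3 with glutamine and 96.1%, 91.1% and 95.1% without. The exact Clopper-Pearson 95% intervals, which cover counting error only, were 93.6% to 96.0% in replicate 1 with glutamine and 89.0% to 92.9% in replicate 2 without. The mean share was 91.7% ± 2.75 with and 94.1% ± 2.65 without glutamine (SD, n = 3; exact permutation test, two-sided, p = 0.2, adjusted over the 4 paralog pairs 0.4). The difference of 2.34 percentage points was within the spread between libraries, and 3 libraries against 3 cannot give a p below 0.1. Leaving out replicate 1 with glutamine gave 3.92 points, and leaving out replicate 2 or 1 grown without it gave 3.84 and 1.34. It was also smaller without replicate 2 with glutamine, at 1.45 points.

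TCF15 encodes paraxis, a basic helix-loop-helix factor needed for somites to become epithelial. TCF15 (ENSG00000125878, chromosome 20, 603797 to 610398, minus strand) was at 2.13, 7.34 and 8.03 CPM with glutamine, against 3.09, 2.49 and 1.92 CPM without. Replicate 1 with glutamine lay between replicates 2 and 3 of the other group. The mean of replicates 2 and 3 was 3.07 times that without glutamine. The log2 fold change was -1.22 (SE 0.47, adjusted p = 0.142 by edgeR; 0.0218 by DESeq2), and -1.61 (SE 0.17, adjusted p = 5.95e-05 by edgeR) without replicate 1 with glutamine.

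MEOX1 and MEOX2 are homeobox paralogs that act together in somite patterning, and they differed from each other here. MEOX2 (ENSG00000106511, chromosome 7, 15611212 to 15686812, minus strand) was at 4.53, 15.7 and 14.8 CPM with glutamine, against 4.16, 4.26 and 4.32 CPM without. The libraries without glutamine were the tightest of any regulator tested, with a highest value 1.04 times the lowest, and replicate 1 with glutamine lay just above the highest of them. Its log2 fold change was -1.46 (SE 0.42, adjusted p = 0.0899 by edgeR; 0.0437 by DESeq2) and -1.84 (SE 0.09, adjusted p = 6.53e-07 by edgeR) without that replicate. MEOX1 (ENSG00000005102, chromosome 17, 43640388 to 43661954, minus strand) was at 35.2, 60.0 and 65.7 CPM with glutamine, against 56.0, 54.4 and 47.1 CPM without. Here replicate 1 with glutamine was not inside the other group but below all 5 other libraries. The group means of MEOX1 were 53.6 ± 16.2 and 52.5 ± 4.74 CPM (SD, n = 3), with a log2 fold change of -0.03 (SE 0.22, adjusted p = 0.936 by edgeR) whose sign reversed under limma-voom, the replicate block and 3 of the fits that left out a library. Without replicate 1 with glutamine MEOX1 was called lower at -0.26 (SE 0.09, adjusted p = 0.0434 by edgeR).

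Per length, MEOX1 made up 87.8%, 78.0% and 80.4% of the summed MEOX1 and MEOX2 counts in replicates 1, 2 and 3 with glutamine. Its share was 92.6%, 92.2% and 91.0% without glutamine, above all 3 libraries with it. The 95% exact interval of replicate 1 with glutamine, 86.5% to 88.9%, did not reach the lowest interval without glutamine, 90.0% to 91.9%. These intervals cover counting error only, not the spread between libraries, where the share ran from 78.0% to 87.8% with glutamine. The mean share was 82.1% ± 5.10 with and 91.9% ± 0.826 without glutamine (SD, n = 3), a difference of 9.85 percentage points. The exact permutation test, two-sided, gave p = 0.1, the smallest this design allows, and 0.4 adjusted over the 4 pairs. The difference was 12.7 points when replicate 1 with glutamine was left out.

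The sclerotome factors did not form a group of their own. PAX9 (ENSG00000198807, chromosome 14, 36657568 to 36679715, plus strand), a paired-box factor of the sclerotome and the pharyngeal pouches, was at 1.57, 5.49 and 5.52 CPM with glutamine, against 2.03, 2.14 and 2.20 CPM without. Its replicate 1 with glutamine was the lowest of all 6 libraries. The log2 fold change of PAX9 was -0.98 (SE 0.44, adjusted p = 0.184 by edgeR; 0.0659 by DESeq2) and -1.37 (SE 0.12, adjusted p = 1.89e-05 by edgeR) without that replicate. PAX9 shares 481 exon bases with SLC25A21 on the opposite strand, and whether the counting used strand is not given in the sources used here. SLC25A21 held 528 to 631 counts per library, against 127 to 434 for PAX9. PAX1, the paralog of PAX9 (ENSG00000125813, chromosome 20, 21705659 to 21718486, plus strand), had 0, 0 and 1 counts with glutamine and 1, 2 and 0 without, under the 3 counts at which a count of 0 is read. No fold is therefore given for PAX1, and a difference was not detectable at this depth. PAX9 accordingly took 98.8% to 100% of the length-scaled counts of the pair, and its mean share differed by -0.52 points between the groups, or by -0.48 without replicate 1 with glutamine.

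UNCX (ENSG00000164853, chromosome 7, 1232907 to 1237318, plus strand), a homeobox factor of the posterior part of each somite, had its higher values without glutamine. It was at 14.1, 18.6 and 14.8 CPM with glutamine, against 34.3, 26.9 and 16.8 CPM without. The groups overlapped, since replicate 3 without glutamine lay below replicate 2 with it, and the libraries without glutamine spread 2.05-fold. UNCX was the 1 tested regulator in which replicate 1 with glutamine lay with its own group. The log2 fold change was 0.72 (SE 0.25, adjusted p = 0.122 by edgeR; 0.0264 by DESeq2). It was 0.64 (SE 0.24, adjusted p = 0.0581 by edgeR) without replicate 1 with glutamine, the 1 tested regulator not called in that fit, and 0.47 without replicate 1 of the other group.

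FOXC1 and FOXC2 are forkhead paralogs expressed in paraxial mesoderm, where they are needed for somites to form. FOXC2 (ENSG00000176692, chromosome 16, 86566829 to 86569728, plus strand) was at 102, 80.3 and 72.3 CPM with glutamine, against 137, 113 and 90.3 CPM without. Replicate 3 without glutamine lay below replicate 1 with it, so the groups overlapped through these 2 libraries. Its log2 fold change was 0.42 (SE 0.18, adjusted p = 0.169 by edgeR; 0.106 by DESeq2), 0.58 (SE 0.15, adjusted p = 0.0112 by edgeR) without replicate 1 with glutamine and 0.27 without replicate 1 of the other group. FOXC2-AS1 on the opposite strand shares 145 exon bases with FOXC2 and held 12 to 41 counts per library, against at least 5678 for FOXC2. FOXC1 (ENSG00000054598, chromosome 6, 1609972 to 1613897, plus strand) was at 55.4, 49.8 and 45.3 CPM with glutamine, against 61.1, 52.4 and 58.0 CPM without. FOXC1 had the smallest fitted difference after MEOX1, with a log2 fold change of 0.19 (SE 0.10, adjusted p = 0.244 by edgeR) and of 0.27 (SE 0.09, adjusted p = 0.0307 by edgeR) without replicate 1 with glutamine. It was 0.12 without replicate 3 with glutamine and 0.14 without replicate 1 of the other group. Per length, FOXC1 made up 28.7%, 31.4% and 31.6% of the pair with glutamine and 24.7%, 25.5% and 32.2% without (exact permutation test, two-sided, p = 0.4, adjusted 0.4). The difference of -3.12 points was -4.06 without replicate 1 with glutamine, -5.48 without replicate 3 without glutamine and -1.74 without replicate 1 of that group, and a p of this size does not show that the paralogs moved alike.

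**Figure D2:**
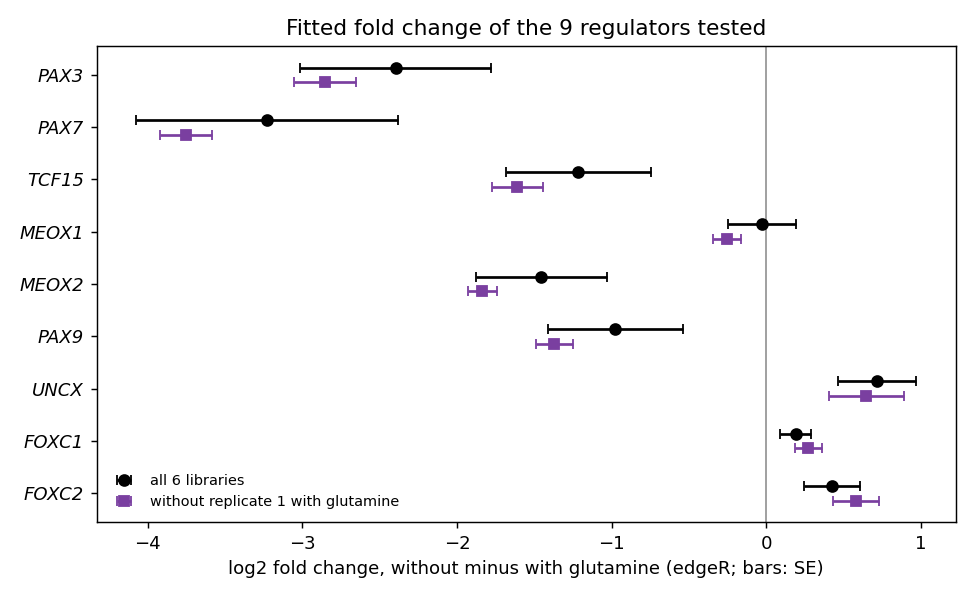
Log2 fold change, without minus with glutamine, of the 9 regulators tested, from edgeR with all 6 libraries (black circles) and without replicate 1 with glutamine (purple squares), with bars for the SE. Leaving out that library moves PAX3 from -2.40 to -2.85 and PAX7 from -3.23 to -3.75 and shortens most bars, while UNCX stays at 0.72 and 0.64.

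Levels of different genes were compared as CPM per kilobase of exon. FOXC2 was the most abundant regulator in every library, at 29.2 ± 5.25 CPM per kilobase with glutamine and 39.2 ± 8.13 without (SD, n = 3). With glutamine the order of the means went on with MEOX1 at 19.8 ± 5.98, FOXC1 at 12.8 ± 1.29, PAX3 at 10.7 ± 6.97, UNCX at 7.72 ± 1.18, MEOX2 at 4.66 ± 2.47, TCF15 at 3.75 ± 2.07, PAX7 at 1.12 ± 0.845 and PAX9 at 0.695 ± 0.377. Among these neighbours, FOXC2 against MEOX1 and UNCX against MEOX2 had no overlap between libraries, and the ranges of the others overlapped. Within each library with glutamine, however, MEOX2 ranked 6 and TCF15 7 of 10, with PAX7 below both. Over replicates 2 and 3 alone PAX3, at 14.7 CPM per kilobase, stood before FOXC1, at 12.1, and the order of the other regulators was the same, from FOXC2 at 26.3 and MEOX1 at 23.2 down to PAX9 at 0.913. Without glutamine the order after FOXC2 was MEOX1 at 19.4 ± 1.75, FOXC1 at 14.6 ± 1.12, UNCX at 12.7 ± 4.30, PAX3 at 2.02 ± 0.694, MEOX2 at 1.70 ± 0.0314, TCF15 at 1.61 ± 0.376, PAX9 at 0.352 ± 0.0142 and PAX7 at 0.119 ± 0.0335. FOXC1 and UNCX overlapped there, as did PAX3, MEOX2 and TCF15 among each other. PAX3 ranked 3 of 10 in replicates 2 and 3 with glutamine and 5 to 7 in the other 4 libraries.

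As a share of the summed CPM per kilobase of the 10 genes, PAX3 made up 3.48%, 14.6% and 15.4% in replicates 1, 2 and 3 with glutamine and 2.63%, 1.72% and 2.20% without. FOXC2 made up 46.6%, 27.8% and 25.9% with glutamine and 44.2%, 42.9% and 40.7% without. Replicate 1 with glutamine therefore had the largest FOXC2 share of all libraries, and its PAX3 share was above the highest without glutamine and far below those of replicates 2 and 3. MEOX1 held 17.3% to 25.2% in all 6 libraries.

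**Figure D3:**
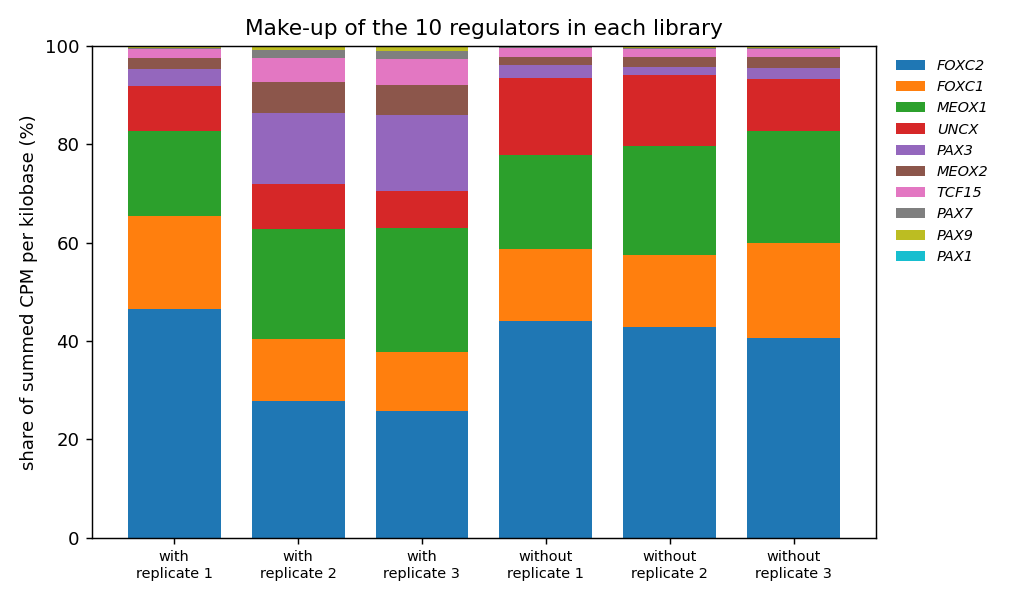
Share of each regulator in the summed CPM per kilobase of the 10, in percent, for each of the 6 libraries as a stacked bar. PAX3 (purple) takes 14.6% and 15.4% in replicates 2 and 3 with glutamine, against at most 3.48% in the other libraries, where FOXC2 (blue) takes at least 40.7%.

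For the 3 regulators with the highest mean CPM, the genes with the most similar profile were found by the root mean square difference of centred log2 CPM over the 6 libraries, among 11921 genes with a mean of at least 5 CPM. FOXC2 was nearest to SIGIRR (0.049), CELSR1 (0.061) and ANO8 (0.065). FOXC1 was nearest to CCDC186 (0.019), TEX9 (0.020) and L3HYPDH (0.025), and MEOX1 to HS6ST2 (0.072), HEY2 (0.079) and ISG15 (0.083). The same measure was applied to the other regulators tested, and these results are named after their values were seen. For PAX3 it gave DMRT2 (0.097), another dermomyotome factor, then EYA2 (0.210) and PMEL (0.261). The nearest gene was FMOD (0.171) for PAX7, MYBL1 (0.058) for MEOX2 and GREM1 (0.155) for TCF15. It was SLC2A3 (0.092) for PAX9 and UBE2S (0.135) for UNCX. PMEL was at 21.2, 84.6 and 96.1 CPM with glutamine, against 14.6, 13.6 and 12.2 CPM without. DMRT2 was at 4.47, 24.1 and 26.6 CPM with glutamine, against 4.58, 2.59 and 2.41 CPM without.

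Genes that act later in the somite were taken from a list of 17 genes of the sclerotome, dermomyotome, muscle and tendon, of which 14 were tested. Of the 14, none was called by edgeR with all 6 libraries or by limma-voom, and 8 had an unadjusted p under 0.05, against 29.7% of all genes. DESeq2 called 7 of the 17, among them MYF5, which edgeR did not test with all 6 libraries. Over all genes DESeq2 called 3052 of the 22613 that edgeR tested, and 7.13% of the 43005 with a p-value. Without replicate 1 with glutamine, edgeR called 8 lower and 4 higher of 16 tested, against 19% and 22.3% of all genes. The median log2 fold change of the list was -0.20, and -0.54 without that library. It was -0.53 without replicate 1 without glutamine, -0.05 without replicate 3 with glutamine, -0.54 with no filter and -0.58 under DESeq2, so its size depends on which libraries and genes enter. Its 3 most abundant genes were COL2A1, SOX9 and SIM1. COL2A1, a cartilage collagen, was at 632, 960 and 998 CPM with glutamine, against 624, 543 and 513 without, and its groups did not overlap. SOX9, the cartilage regulator, was at 45.0, 53.2 and 52.9 CPM with glutamine, against 37.4, 32.5 and 33.5 without, also with no overlap. Of the 14 genes tested, 3 were lower and 2 higher without glutamine with no overlap, against 34.2% of all genes in either direction. SIM1, a dermomyotome factor, was at 39.5, 34.8 and 33.0 CPM with glutamine, against 48.3, 44.8 and 37.3 without, where replicate 1 with glutamine overlapped the other group.

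Of that list the muscle regulators MYF6, MYF5, MYOD1 and MYOG, named after their values were seen, followed the PAX3 and PAX7 libraries. MYF6 had 32, 327 and 331 counts with glutamine and 8, 10 and 1 without, and MYF5 had 5, 57 and 71 with and 3, 0 and 1 without. Replicate 1 with glutamine was far below the other two of its group for both genes. The groups of MYF6 did not overlap, as in 34.2% of all genes. For MYF5, which did not pass the filter with all 6 libraries, the gap between the groups was that of 5 against 3 counts. MYOD1 had 0, 7 and 7 counts with and 0 in all 3 without, close to the limit of detection at this depth. MYOG had 5, 18 and 14 counts with and 0, 4 and 2 without. The opposite pattern was seen in ACAN, a cartilage proteoglycan, at 31.8, 3.01 and 2.25 CPM with glutamine, against 28.5, 20.5 and 19.0 without. LBX1 and EN1 of the same list, also named after their values were seen, showed neither split clearly. LBX1 had 15, 26 and 26 counts with and 25, 22 and 16 without, and EN1 had 5, 11 and 4 with and 12, 18 and 11 without.

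**Figure D4:**
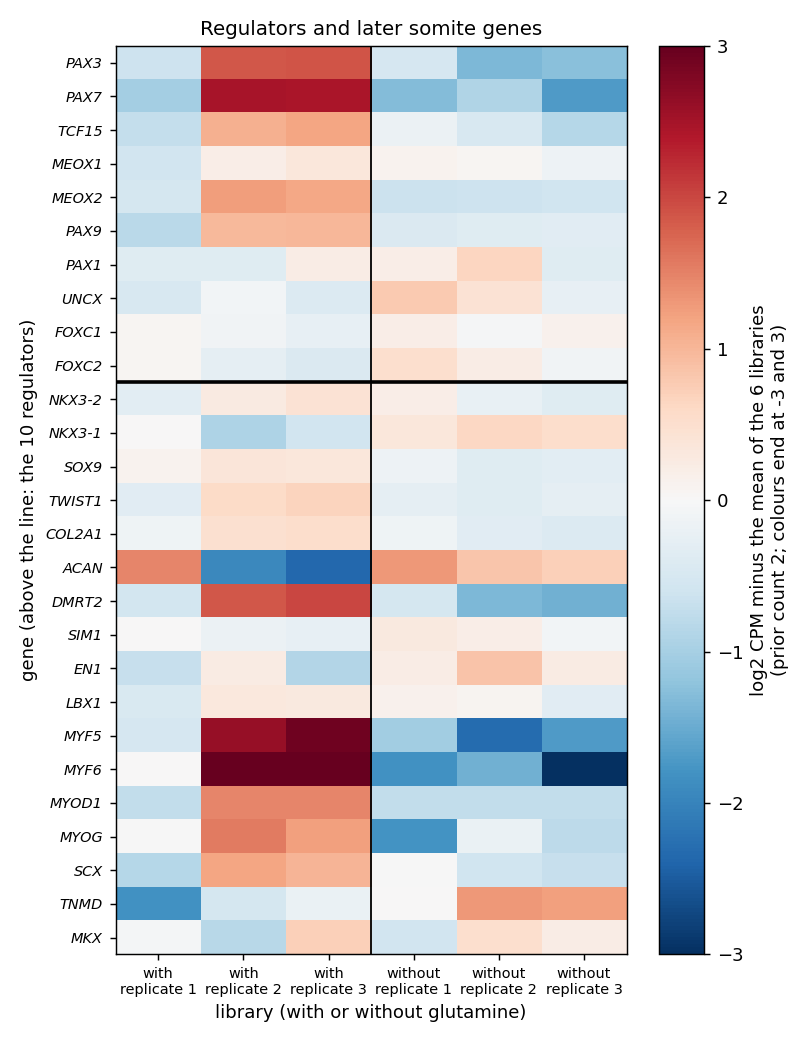
Log2 CPM of the 10 regulators (above the line) and of the 17 later somite genes, each minus its mean over the 6 libraries, with red for higher and blue for lower. PAX3, PAX7, DMRT2, MYF5 and MYF6 are red in replicates 2 and 3 with glutamine and near or below the mean in the other 4 libraries, and colours of genes with few counts, such as MYOD1, PAX1 and MYOG, rest on a few reads.

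Genes upstream of the somite, 12 genes of the presomitic mesoderm and segmentation with 11 tested, had fitted values in both directions. None was called by edgeR, and 7 had an unadjusted p under 0.05, against 29.7% of all genes. DESeq2 called 2, against 3052 of the 22613 genes that edgeR tested and 7.13% of the 43005 with a p-value. These 2, named after their values were seen, were MSGN1, lower (adjusted p = 0.0182 by DESeq2), and RIPPLY1, higher (adjusted p = 1.95e-06 by DESeq2). The groups did not overlap for 2 genes higher and 2 lower of the 11, against 34.2% of all genes in either direction. Without replicate 1 with glutamine 4 were called higher and 4 lower, against 22.3% and 19% of all genes. The median log2 fold change was -0.10, or -0.17 without that library. EPHA4, the most abundant, was at 154, 186 and 178 CPM with glutamine, against 144, 148 and 192 without glutamine. DLL1, a Notch ligand, was at 54.7, 22.5 and 21.1 CPM with glutamine, against 78.1, 74.6 and 55.2 without. TBX18, a factor of the anterior part of the somite where UNCX marks the posterior, was at 54.4, 27.0 and 27.9 CPM with glutamine, against 43.9, 46.6 and 74.3 without.

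Markers of other tissues also differed between libraries, and their part in the result was not tested. Their counts stand beside the shares of all genes: 29.7% at an unadjusted p under 0.05 with all 6 libraries, and 22.3% called higher and 19% called lower without replicate 1 with glutamine. The 10 genes of the nephron progenitor and intermediate mesoderm summed to 1609, 866 and 795 CPM with glutamine and to 1498 to 2009 without, led by PAX8, WT1 and EYA1. With all 6 libraries edgeR called 0 of them, 5 at an unadjusted p under 0.05, and without replicate 1 with glutamine 7 were higher and 3 lower. The lower ones were EYA1 and, named after their values were seen, SIX2 and OSR1. SIX2 was at 6.57, 34.8 and 27.8 CPM with glutamine, against 7.27 to 9.7 without. OSR1 was at 16.4, 39.9 and 35.4 CPM with glutamine, against 16.4 to 17.3 without. Both were high in replicates 2 and 3 with glutamine and low in the other libraries, as PAX3 was. EYA1 was at 164, 222 and 202 CPM with glutamine, against 131 to 155 without, with no overlap. PAX3 and PAX7 are also expressed in the neural crest and the dorsal neural tube. The 7 neural crest genes summed to 324, 383 and 381 CPM with and to 274 to 303 without glutamine, most of it from ETS1, SNAI2 and ERBB3, and SOX10, a defining gene, was at 0 counts in all 6 libraries. Without replicate 1 with glutamine 1 of the 6 tested was called higher and 3 lower. FOXD3, an early neural crest factor named after its values were seen, was among the lower ones (log2 fold change -1.69, adjusted p = 0.0108 by edgeR). It was at 2.13, 4.46 and 4.99 CPM with glutamine, against 2.84, 0.651 and 0.789 without, so the groups overlapped. The gene called higher in that fit was TFAP2A (log2 fold change 2.74, adjusted p = 8.36e-05 by edgeR), also named after its values were seen. TFAP2A was at 6.38, 0.807 and 0.687 CPM with glutamine, against 6.31, 5.22 and 3.41 without. In the sum of the neural crest genes replicate 1 with glutamine, at 324 CPM, lay between replicates 2 and 3 of its group and the libraries without glutamine. The 10 neural tube genes, led by MSX1, SOX2 and MSX2, summed to 57.2, 77.0 and 71.9 CPM with and to 83.8, 61.9 and 57.6 without, so those groups overlapped, and 1 higher and 4 lower of 9 were called without replicate 1 with glutamine. Of the 8 endothelial genes, MEOX2 being known in vessels too, the sum was 35.2, 97.1 and 82.8 CPM with and 21.9 to 28.3 without, led by KDR, TIE1 and TEK. KDR alone held 24.3, 82.3 and 69.8 CPM with glutamine and 12.7 to 17.5 without. PECAM1 was at 0.592, 1.14 and 1.07 CPM with glutamine, against 0.291, 0.230 and 0.331 without, and DESeq2 called it lower (adjusted p = 0.000508). CDH5 was at 1.22, 1.77 and 1.37 CPM with glutamine, against 0.384, 0.574 and 0.624 without, and was also called lower by DESeq2 (adjusted p = 0.000109). The groups did not overlap for 5 of the 8 genes, PECAM1, CDH5 and KDR among them, against 34.2% of all genes. TEK went the other way, at 1.33, 2.33 and 2.20 CPM with glutamine, against 1.88, 2.72 and 3.06 without. Its log2 fold change was 0.38 by edgeR with all 6 libraries, and the other 7 had negative ones. Without replicate 1 with glutamine 6 of the 8 endothelial genes were called lower and 0 higher. The 8 endoderm genes summed to 8.76 CPM at most, led by CDX2, APOA1 and HHEX, and NKX2-1 was at 0 counts in all libraries, with 1 higher and 3 lower of 5 called without replicate 1 with glutamine. The 10 lateral plate and cardiac genes summed to 127, 75.7 and 74.2 CPM with and 132 to 148 without, nearly all from BMP4, PRRX1 and, far below, GATA4, and 8 of the 10 were under 1 CPM in all libraries. Of the 6 tested without replicate 1 with glutamine, 6 were called higher. With all 6 libraries edgeR called no gene of the 5 lists given after the nephron progenitor list, and 13 of their 31 tested genes had an unadjusted p under 0.05.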

How the data were processed

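The 10 regulators, the gene lists and the tests were chosen with earlier results of these data known. All 10 regulators are named. Of each other list the 3 genes with the highest mean CPM, any called gene and defining genes at 0 counts (SOX10, NKX2-1) are named. DMRT2, EYA2, PMEL, MYF5, MYF6, MYOD1, ACAN, FOXD3, TFAP2A, PECAM1 and CDH5 were named after their values were seen. So were FMOD, MYBL1, GREM1, SLC2A3, UBE2S, SIX2, OSR1, MYOG, LBX1, EN1, MSGN1 and RIPPLY1. 1 gene of the lists is not reported here and was left out of their counts and sums. The authors deposited raw counts per Ensembl gene and a table of normalized counts, a signal equal to the deposited count divided by 1 size factor per library, used here only for that check. The submitters' processing notes name cutadapt, Trim Galore, FastQC, STAR 2.5.2b, DESeq2 and GRCh38. The counting program, annotation and strand setting are not given in the sources used here. Column headings name days 0 and 9, but all labels give day 9: headings with day 0 are, per the labels' descriptions, the libraries with glutamine, and all directions rest on that. Names, positions and lengths came from GENCODE 29, which matched 56531 of 60107 IDs, and promoters from RefSeq (GRCh38.p14), with entries for 6 of 10 regulators.

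The test on counts was edgeR 4.0.16 in R 4.3.3 (quasi-likelihood F test, legacy = FALSE, TMM, filterByExpr), which kept 22613 genes, with Benjamini-Hochberg adjustment over all of them and a threshold of 0.05. The SE is the absolute log2 fold change over the square root of F. Alternatives were DESeq2 1.42.0, limma-voom (limma 3.58.1), other scalings and filters, the legacy setting, a replicate block and leaving out each library. Shares of paralog pairs used counts per exon length. The tests were tried on simulated counts.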

Additional observations from a re-analysis of the deposited data

How the results depend on the processing

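The count of 0 regulators called by edgeR held under each other scaling and filter, edgeR's legacy setting, limma-voom, the replicate block and 5 of the 6 fits that left out 1 library. It was 5 under DESeq2 and 8 without replicate 1 with glutamine, so leaving out 1 library gave 0 to 8. In that 5-library fit DESeq2 and the legacy setting also called 8. For all genes the count of 1 became 0 under upper quartile scaling, library size only, the legacy setting, limma-voom and the replicate block, 2 with no filter, 3065 under DESeq2 and 0 to 9573 with 1 library left out, the highest without replicate 1 with glutamine, and 17 without replicate 1 without glutamine. Listed genes called went from 0 to 18 under DESeq2 and from 0 to 55 over the fits that left out 1 library. The regulators' median of -0.977 was -0.498 with no filter and -0.503 under DESeq2, both of which add PAX1, and -1.37 to -0.729 with 1 library left out. The cause of the other changes was not tested.

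MEOX1 reversed sign, to 0.02 under limma-voom, 0.01 with the replicate block and between -0.26 and 0.14 with 1 library left out (0.05 and 0.14 without replicates 2 and 3 with glutamine, 0.04 without replicate 3 without). The other 8 regulators tested kept their direction under every alternative run. Of 135 alternative values for the 9 regulators, 117 led to the same call and direction, 13 crossed into being called and 5 reversed. The 4 paralog shares kept their direction without length scaling and with each library left out. Same-numbered libraries did not deviate together (correlations -0.02, 0 and 0.03), and with the replicate block 0 regulators were called, with a median of -0.827. Depth limits PAX1, with at most 2 counts.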
